A study of Mus musculus with 10 samples.

Results

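The insulin-like growth factor (IGF) axis was followed in kidney RNA of mice that lacked Ehhadh. Its genes were taken by symbol from the joined count matrix: the ligand gene Igf1, the receptor genes Igf1r and Igf2r, and the binding protein genes Igfbp1 to Igfbp7, which are 10 of 24062 genes. All 10 passed the filter on low counts. The series held 10 polyadenylated RNA libraries of kidney, each from 1 mouse. The study compared adult males of strain C57BL/6N, 4 with the Ehhadh genotype KO and 4 with the genotype WT, and added 1 WT mouse each of the strains 129S2_SvPasCrl and DBA_2J. Ehhadh encodes the peroxisomal bifunctional enzyme of fatty acid oxidation. No treatment, exact age or design of the KO allele is given in the sources used here, and the labels name no cell type in which the gene was removed. Replicate numbers only name the libraries.

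IGF-1 is a growth hormone mediator that is made mainly by the liver and also locally in tissues such as the kidney, where it supports growth of the organ and glomerular filtration. It acts through the receptor tyrosine kinase IGF1R on the PI3K, AKT and mTOR pathway, while IGF2R binds IGF-2 and carries it to lysosomes. IGF binding proteins hold the ligands in blood and tissue, proteases such as PAPP-A cut them and free the ligand, and IGFBP7 differs from the others in its low affinity for IGFs.

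The 250 bases upstream of the RefSeq start (GRCm38.p6, plus strand) are shown for 3 binding protein genes, because Igfbp1 and Igfbp2 varied most between WT libraries and Igfbp6 had the lowest unadjusted p of the binding proteins. Windows were found for 10 of 10 members. Capitals mark the motifs that were searched on both strands, TGTTT (the core bound by FOXO factors, which AKT inhibits) and TATAAA, an element found near many start sites.
Igfbp1, chr11:7197537-7197786: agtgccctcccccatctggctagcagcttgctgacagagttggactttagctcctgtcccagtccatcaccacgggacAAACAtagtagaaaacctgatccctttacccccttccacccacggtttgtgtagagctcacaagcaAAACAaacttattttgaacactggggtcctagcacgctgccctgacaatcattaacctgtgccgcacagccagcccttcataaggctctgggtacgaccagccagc
Igfbp2, chr1:72824230-72824479: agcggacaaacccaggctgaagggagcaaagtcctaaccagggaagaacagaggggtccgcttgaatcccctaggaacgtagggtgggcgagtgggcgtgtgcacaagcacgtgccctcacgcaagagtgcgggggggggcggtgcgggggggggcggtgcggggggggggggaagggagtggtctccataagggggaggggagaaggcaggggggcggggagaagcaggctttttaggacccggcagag
Igfbp6, chr15:102143936-102144185: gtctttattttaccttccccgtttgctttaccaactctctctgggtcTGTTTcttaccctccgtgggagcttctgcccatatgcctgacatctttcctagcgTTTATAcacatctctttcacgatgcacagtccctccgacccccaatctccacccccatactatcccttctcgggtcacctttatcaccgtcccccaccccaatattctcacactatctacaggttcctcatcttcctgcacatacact
The FOXO core stood in the Igfbp1 window 2 times, at 172 to 168 and 106 to 102 bases before the start on the minus strand, and in the Igfbp6 window 1 time. It also stood 1 time in the window of Igf1, which is not printed because all of its 250 bases lie in exons of other annotated Igf1 transcripts. These letters are common: 46.4% of 32851 windows of the same length held TGTTT and 12.4% held TATAAA, the latter including Igfbp4 and Igfbp6. In Igfbp4, TATAAA stood 28 to 23 bases before the start on the plus strand. In Igfbp6 it stood further away, at 148 to 143 bases, and on the minus strand. The sequence TGATGNAA, a C/EBP-ATF element found in 3.45% of windows, had no match in the members. No searched motif stood in the Igfbp2 window.

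The labels were checked first. Ehhadh read 282, 327, 246 and 175 CPM (counts per M, or mega, of the scaled library total, with 1 scaling over all 10 libraries) in KO replicates 1 to 4 and 3416, 2211, 2087 and 2184 CPM in WT replicates 1 to 4, so each C57BL/6N library lay on the side of its label. The strain libraries read 788 CPM (129S2_SvPasCrl) and 795 CPM (DBA_2J), above every KO library and below every C57BL/6N WT library. Library totals ran from 41.49 to 52.30 M (mega) counts in KO and from 19.79 to 35.99 M in WT, so each KO library was deeper than each WT library. Proximal tubule markers were abundant in every library, and summed to 25776 to 31848 CPM in KO and 35321 to 36710 CPM in WT. Of these 8 genes, Lrp2 (log2 fold change −0.42), Kap (−0.42) and Slc7a13 (−1.01) were called lower in KO, and Slc34a1 was not (5552 and 5568 CPM). Of 15547 genes tested, 1710 (11%) passed an adjusted p of 0.05 in edgeR's quasi-likelihood test, 982 higher (6.32%) and 728 lower (4.68%) in KO. The count fell to 1005 without KO replicate 1, 1068 without KO replicate 2 and 1006 without WT replicate 3, and the lower calls to 465 without WT replicate 1.

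In WT kidney, per length of transcript, the axis was dominated by 2 binding proteins. Igfbp7 was read at 619 ± 39.8 RPKM (CPM per kilobase of exons) and Igfbp4 at 427 ± 16.0 RPKM (SD, n = 4). Igfbp3 (53.4 ± 18.6 RPKM) and Igfbp5 (46.7 ± 5.84 RPKM) followed, and their WT libraries overlapped. Igf2r (22.8 ± 2.57 RPKM), Igfbp1 (19.1 ± 9.27 RPKM) and Igf1r (16.7 ± 1.25 RPKM) came next, with Igfbp1 overlapping both receptors and the receptors not overlapping each other. Igfbp6 (6.36 ± 1.47 RPKM) and Igfbp2 (3.09 ± 1.64 RPKM) overlapped, and the ligand Igf1 was lowest, at 0.715 ± 0.177 RPKM.

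Loss of Ehhadh was compared with the level of each gene of the axis. The ligand was lower in KO, and no receptor or binding protein passed the test. With 1 of 10 genes called lower and 0 higher, the share was close to the 11% of all genes. The groups did not overlap in 1 of 10 members, against 17.7% of all genes, and 3 of 10 had an unadjusted p under 0.05, against 26%. The median log2 fold change was −0.11 over the 10 members and −0.01 over all tested genes, and the median size was 0.13 against 0.14.

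**Figure D1:**
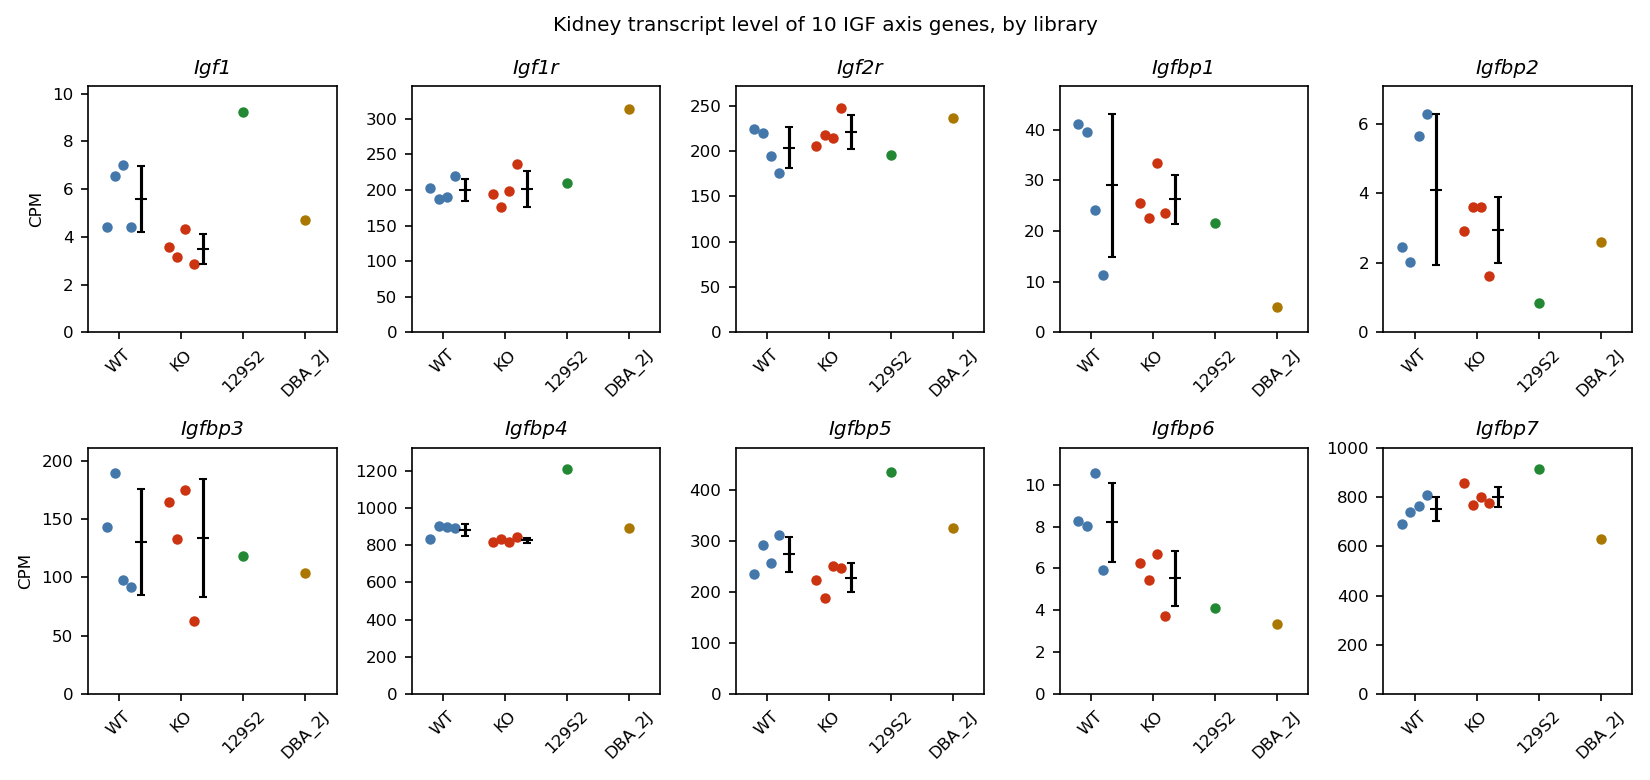
CPM of each gene in every library (points; axes start at 0), with mean ± SD beside the 4 WT and 4 KO libraries; the strains 129S2_SvPasCrl (129S2) and DBA_2J have 1 library each. Igf1 is the gene in which all KO points lie below all WT points, by a narrow margin (4.33 against 4.39 CPM).

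Igf1, the ligand, lies on chromosome 10 from 87859056 to 87937047 (mm10, plus strand, 22 exon entries). It read 3.57, 3.17, 4.33 and 2.88 CPM in KO replicates 1 to 4. WT replicates 1 to 4 read 4.39, 6.53, 7.02 and 4.43 CPM. WT fell into a lower and a higher pair, and the highest KO library lay just under the lowest WT library. The level was 1.61-fold lower in KO (log2 fold change −0.69, SE 0.20, 95% interval −1.12 to −0.26, edgeR adjusted p = 0.0460). These values rest on 133 to 201 counts in KO and 86 to 255 in WT.
The Igf1 call is close to the threshold. Without KO replicate 1, KO replicate 2, KO replicate 4, WT replicate 2 or WT replicate 3 the adjusted p rose to 0.0916, 0.112, 0.0902, 0.117 and 0.145 in edgeR, while the log2 fold change stayed between −0.81 and −0.55 over the 8 fits without 1 library. It was kept in 10 of 17 alternative settings, and the sign was negative in 17 of 17. The 2 fits within forms of the sample title, given below, are not among these 17, and neither called Igf1.

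Igf1 is made by stromal and other non-tubular cells in many tissues, so markers of the other cells of the kidney were set beside it. Smooth muscle genes fell in KO, Myh11 (log2 fold change −0.88, edgeR adjusted p = 0.000379) and Acta2 (−0.62, 0.000849) with Tagln (−0.29, 0.0359), while the other 8 of 11 stromal and mural genes did not pass. Their log2 fold changes ran from −0.61 (Lum) to 0.30 (Col1a1), and over the list 10 of 11 were below 0 with a median of −0.28. The summed stromal list was 181 to 232 CPM in KO and 244 to 263 CPM in WT. The endothelial list summed to 225 to 349 CPM in KO and 322 to 390 CPM in WT, with Kdr and Tie1 called lower, 8 of 10 genes not called and a median of −0.27. Of 6 macrophage genes, Csf1r fell from 57.3 ± 1.13 to 36.6 ± 4.07 CPM (SD, n = 4 each) and 5 did not pass. The macrophage list summed to 76.1 to 95.2 CPM in KO and 97.4 to 112 CPM in WT, while 4 of its 6 genes (Cd68 0.65, Itgam 0.33, C1qb 0.21 and C1qa 0.14) had log2 fold changes above 0 and its median was 0.18. KO replicate 4 was lowest of the 8 C57BL/6N libraries for Igf1. Of the defining endothelial and stromal markers, Pecam1 (19.3 CPM), Cdh5 (13.5 CPM), Kdr (19.1 CPM) and Pdgfra (14.1 CPM) were also lowest there. Col1a1 was highest there (16.9 CPM), and Pdgfrb was lowest in KO replicate 2 (20.2 CPM). All 5 principal cell markers of the collecting duct were called lower in KO, with sums of 286 to 315 CPM against 423 to 734 CPM in WT. For comparison, 4.68% of all genes were called lower. None of the 7 podocyte, 5 adipocyte or 5 tested liver genes passed, and Alb read 5.12 CPM in KO and 13.2 CPM in WT (adjusted p = 0.0554). The part of these cells in the Igf1 difference was not tested, and in whole-kidney RNA fewer cells of a type and less RNA per cell cannot be told apart.

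Across all 10 libraries, the genes whose log2 CPM was most like that of Igf1 were Pi16 (r = 0.97), Jag1 (r = 0.96) and Atp13a2 (r = 0.94). On deviations from the group means over the 8 C57BL/6N libraries they were Htr4 (r = 0.99), Igip (r = 0.97) and Btg1 (r = 0.97). The 2 measures named different genes, and both are descriptions over few libraries of 1 tissue, which differ in depth.

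Neither receptor was called. Igf1r, which signals for IGF-1 (chromosome 7, 67952257 to 68233667), read 194, 176, 199 and 236 CPM in KO and 202, 187, 190 and 220 CPM in WT. The log2 fold change was 0.02 (95% interval −0.18 to 0.21, edgeR adjusted p = 0.937), an interval that spans 0.885-fold to 1.15-fold. Igf2r, the receptor that clears IGF-2 (chromosome 17, 12682406 to 12769706), read 205, 218, 214 and 248 CPM in KO and 224, 220, 195 and 175 CPM in WT. Its log2 fold change was 0.12 (95% interval −0.07 to 0.32, adjusted p = 0.410), and the groups overlapped.

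The abundant binding proteins varied little between libraries. Igfbp4, a substrate of PAPP-A (chromosome 11, 99041260 to 99052643), read 815, 833, 819 and 845 CPM in KO and 833, 904, 900 and 892 CPM in WT. Only WT replicate 1 reached down into the KO range, and the log2 fold change was −0.09 (95% interval −0.20 to 0.03, edgeR adjusted p = 0.335). Igfbp7 (chromosome 5, 77349240 to 77408045) read 858, 769, 803 and 778 CPM in KO and 693, 740, 764 and 808 CPM in WT, a log2 fold change of 0.10 (−0.04 to 0.24, adjusted p = 0.378). Its exons share 89 bases with those of Polr2b, and a read over them was counted for both genes.
Per length, Igfbp4 and Igfbp7 together made up 90.1 ± 1.82% of the transcripts of the 7 binding proteins in KO and 89.0 ± 2.10% in WT (SD, n = 4 each). Igfbp7 held 56.1 ± 1.10% of this pool in KO and 52.7 ± 2.14% in WT, and Igfbp4 held 34.0 ± 1.84% and 36.3 ± 0.49%. For both genes the ranges of the genotypes overlapped.

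Igfbp3 and Igfbp5 are the binding proteins of intermediate level. Igfbp3, the main carrier of IGFs in blood (chromosome 11, 7206091 to 7213923), read 164, 133, 175 and 62.3 CPM in KO and 143, 189, 97.7 and 91.6 CPM in WT. KO replicate 4 was the lowest of all 10 libraries, and the log2 fold change of 0.04 had a wide interval (−0.62 to 0.70, edgeR adjusted p = 0.952). Igfbp5, which binds to extracellular matrix (chromosome 1, 72858065 to 72874865), read 223, 189, 251 and 246 CPM in KO and 235, 292, 255 and 311 CPM in WT. Its log2 fold change was −0.26 (SE 0.10, −0.49 to −0.03, adjusted p = 0.135), with WT replicate 1 inside the KO range.

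The remaining 3 binding proteins were read at lower levels. Igfbp6, which prefers IGF-2 (chromosome 15, 102144186 to 102149512), read 6.24, 5.43, 6.70 and 3.73 CPM in KO and 8.27, 8.05, 10.5 and 5.91 CPM in WT. WT replicate 4 fell inside the KO range, and the log2 fold change was −0.57 (SE 0.21, −1.02 to −0.11). The adjusted p was 0.104 in edgeR and 0.0499 in DESeq2. Igfbp2 (chromosome 1, 72824480 to 72852471), raised in fasting and low insulin, read 2.92, 3.62, 3.62 and 1.61 CPM in KO and 2.45, 2.02, 5.64 and 6.29 CPM in WT, a log2 fold change of −0.50 (−1.31 to 0.31, edgeR adjusted p = 0.439). Igfbp1, an insulin-repressed target of FOXO1 in liver (chromosome 11, 7197787 to 7202546), read 25.6, 22.6, 33.3 and 23.6 CPM in KO and 41.1, 39.5, 24.2 and 11.2 CPM in WT. The 4 KO libraries lay inside the WT range (log2 fold change −0.13, −0.81 to 0.55, adjusted p = 0.841).

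Among deviations from the group means over the 8 C57BL/6N libraries, Igf2r ran opposite to Igfbp2 (r = −0.90) and to Igfbp7 (r = −0.84). Igf1 and Igfbp6 ran together (r = 0.76). Igfbp1 and Igfbp3, which lie 3544 bases apart on chromosome 11, had r = 0.59, and Igfbp2 and Igfbp5, 5593 bases apart on chromosome 1, had r = −0.01. Over all 10 libraries, log2 CPM gave r = −0.41 for Igf2r with Igfbp2, −0.56 for Igf2r with Igfbp7 and 0.24 for Igf1 with Igfbp6. The named pairs are some of many, and these are descriptions over 8 or 10 libraries. The group means are those of the genotypes, so differences between the forms of the sample title, given below, remain in the deviations. Igf2r and Igfbp2 are among the genes whose KO difference parted by title form. Their r is therefore not separate from that pattern, and its size with the forms removed was not tested.

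Titles of 4 C57BL/6N samples begin with the letter E and those of 4 do not, with 2 KO and 2 WT mice on each side. The first number in the titles is not balanced in this way, as no such number is shared by a KO and a WT mouse. A difference tied to that number therefore cannot be told apart from one of genotype, in either form. What the letter and the number stand for, a batch or otherwise, is not in the labels. In 3 genes the 2 title forms gave KO differences that parted at an unadjusted p under 0.05. Without the E (replicates 1 and 2), both KO libraries read lower than both WT libraries for Igfbp1 (25.6 and 22.6 against 41.1 and 39.5 CPM) and Igf2r (205 and 218 against 224 and 220 CPM), and higher for Igfbp2 (2.92 and 3.62 against 2.45 and 2.02 CPM). With the E (replicates 3 and 4), Igf2r was higher in both KO libraries (214 and 248 against 195 and 175 CPM) and Igfbp2 lower in both (3.62 and 1.61 against 5.64 and 6.29 CPM), while Igfbp1 overlapped (33.3 and 23.6 against 24.2 and 11.2 CPM).
The edgeR test of genotype by form gave differences of log2 fold changes (E minus no E) of −1.76 for Igfbp2 (unadjusted p = 0.0052, adjusted p = 0.648), 1.41 for Igfbp1 (0.0057, 0.648) and 0.39 for Igf2r (0.0130, 0.691). In this test 0% of all genes passed after adjustment and 6.46% had an unadjusted p under 0.05, against these 3 of 10 members. Fitted within forms, Igfbp1 gave −0.73 without the E (edgeR adjusted p = 0.000336, in a fit that called 11.1% of genes) and 0.68 with it (adjusted p = 0.389, in a fit that called 0.906%). Igf1 gave −0.71 and −0.67 (adjusted p = 0.0821 and 0.349).

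**Figure D2:**
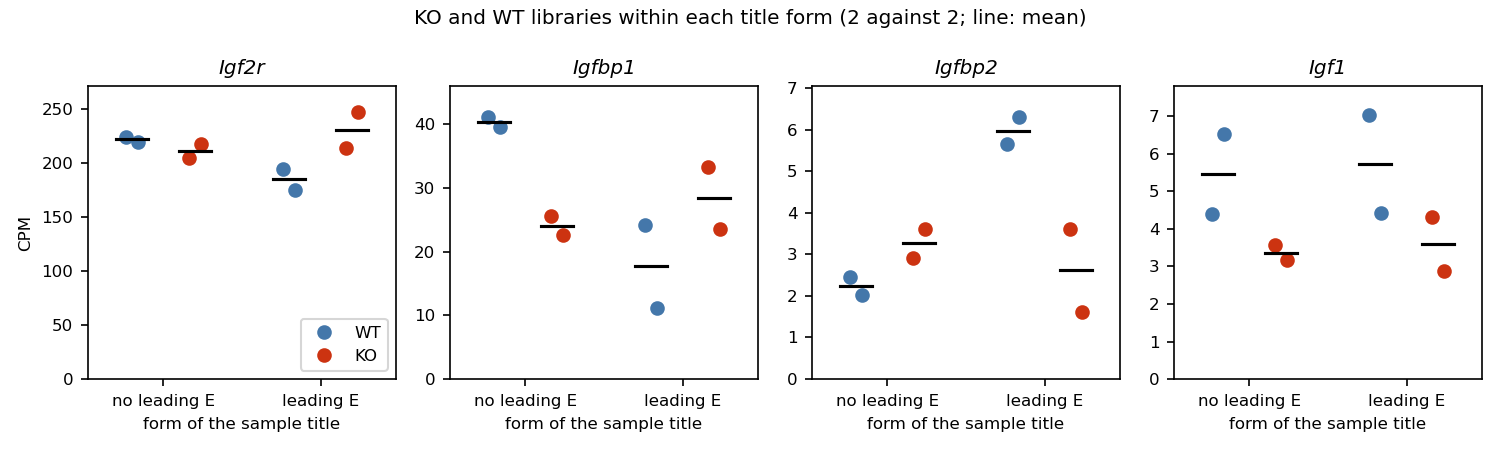
CPM of 4 genes in the 2 KO and 2 WT libraries of each title form (points, with a line at the mean of 2). Igf2r and Igfbp2 differ in opposite directions in the forms, and Igf1 is lower on average in KO in both.

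The single strain libraries lay further from WT than KO did for several members, and with 1 library each they have no test. The 129S2_SvPasCrl library was outside the range of all 8 C57BL/6N libraries in 5 of 10 members, against 47.9% of all genes, and the DBA_2J library in 5 of 10, against 56.8%. The 129S2_SvPasCrl library was above that range for Igf1 (9.23 CPM), Igfbp4 (1209 CPM), Igfbp5 (434 CPM) and Igfbp7 (915 CPM), and below it for Igfbp2 (0.850 CPM, 43 counts). Igfbp2 was lower than the WT mean by a log2 CPM difference of −2.04 there, and was the 1 member of 10 that differed 2-fold or more on this scale, against 9.78% of genes. That library also read 62.8 CPM of the tubular injury gene Havcr1, against 1.33 to 2.43 CPM in WT and 28.9 to 74.8 CPM in KO. Other injured tubule markers did not follow: Krt20 read 0.119 CPM, under every WT library, and Lcn2 2.67 CPM, inside the WT range. The injured tubule list summed to 562 CPM there, against 501 to 634 CPM in WT and 751 to 1434 CPM in KO.
The DBA_2J library was above the range for Igf1r (314 CPM) and Igfbp5 (325 CPM) and below it for Igfbp1 (5.03 CPM), Igfbp6 (3.32 CPM) and Igfbp7 (632 CPM). The log2 CPM differences from the WT mean were −2.35 for Igfbp1 and −1.26 for Igfbp6, 2 of 10 members at 2-fold or more on this scale against 12.9% of genes. Liver genes were low in the same library: their list summed to 9.69 CPM, against 153 to 264 CPM in WT and 173 to 249 CPM in KO, with Ttr at 1.92 CPM and Alb at 1.49 CPM. Whether these values bear on Igfbp1 or Igfbp2 was not tested.

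**Figure D3:**
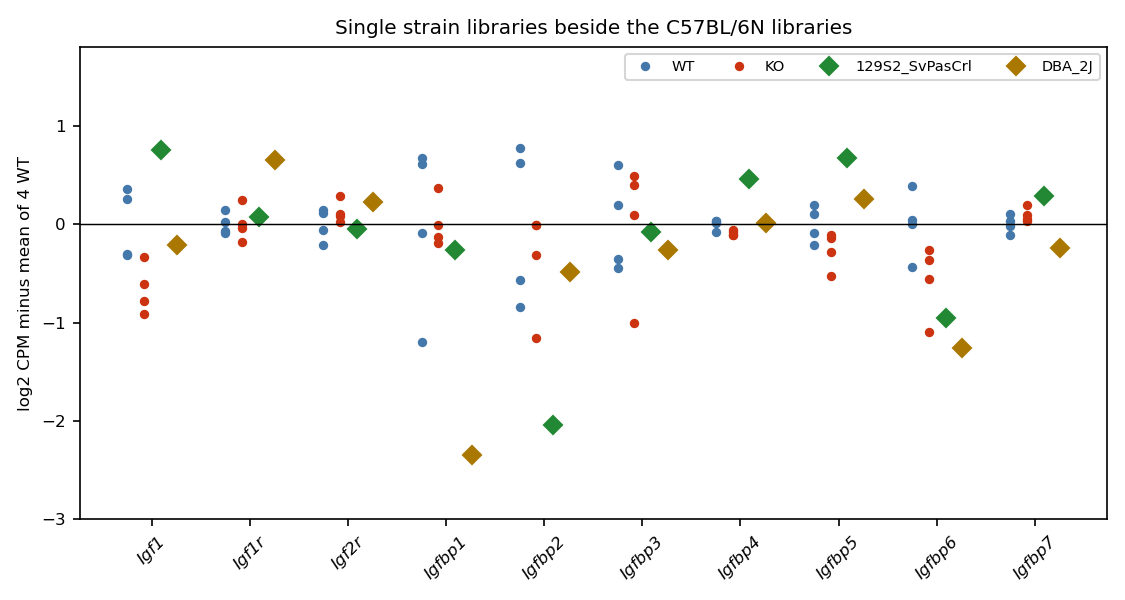
Log2 CPM of each gene minus the mean of the 4 WT libraries, for WT and KO libraries (circles) and the single strain libraries (diamonds). The lowest points are Igfbp1 in DBA_2J (−2.35) and Igfbp2 in 129S2_SvPasCrl (−2.04).

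The largest rise among the called pathway genes was in a protease that cuts an IGF binding protein. Pappa, which encodes the protease PAPP-A that cleaves IGFBP4, read 20.8, 22.9, 20.4 and 18.3 CPM in KO replicates 1 to 4. WT replicates 1 to 4 read 6.28, 10.2, 4.24 and 5.44 CPM, so every KO library lay above every WT library. The log2 fold change was 1.66 (SE 0.22, 95% interval 1.19 to 2.13, edgeR adjusted p = 0.000863), and the strain libraries, at 9.35 CPM (129S2_SvPasCrl) and 6.52 CPM (DBA_2J), lay within the WT range. The call was kept in 17 of 17 alternative settings. Klk1, a tissue kallikrein of the distal nephron, fell from 2099 ± 88.2 to 1403 ± 174 CPM (SD, n = 4 each), though reads of the near-identical kallikrein genes may be split between them, and the strain libraries read 701 and 365 CPM. Of the 12 genes of this list, 11 were tested, 1 was called higher, 1 lower and 9 were not called (median −0.06). That is 18.2% called, against 11% of all genes (6.32% higher and 4.68% lower). Stc2, which encodes the PAPP-A inhibitor stanniocalcin-2, read 2.39 CPM in KO and 1.44 CPM in WT (adjusted p = 0.0548).

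Of 17 other ligand, receptor, adaptor and related genes, 13 were tested, 2 were called higher and 2 lower (median −0.13), or 30.8% called against 11% of all genes. The list also holds Igf2bp1, Igf2bp2 and Igf2bp3, which are neither ligands, receptors nor adaptors, and Igf2bp1 and Igf2bp2 are among its calls. It is short, and nothing particular to it is read from this share. Insrr, an insulin receptor-related kinase that senses alkaline pH, fell from 53.4 ± 5.15 to 32.0 ± 4.31 CPM (log2 fold change −0.73, edgeR adjusted p = 0.00129). Igf2bp1 and Igf2bp2, which encode RNA-binding proteins, moved in opposite directions, Igf2bp1 from 10.1 ± 3.58 to 4.36 ± 0.597 CPM (−1.21, 0.00615) and Igf2bp2 from 10.9 ± 1.24 to 18.0 ± 1.99 CPM (0.73, 0.00167). Grb10, an adaptor that dampens insulin and IGF-1 receptor signals, rose by 0.34 (adjusted p = 0.0170), which was 0.0526 without KO replicate 2 and 0.0541 without WT replicate 3. Igf2 was low, at 0.852 to 1.94 CPM over the 8 libraries, and was not called.

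Of 11 growth hormone signalling genes, 1 was called lower and none higher (median 0.08), or 9.09% against the same 11%. Cish, a STAT5 target that restrains the pathway, read 10.7, 13.4, 10.7 and 10.7 CPM in KO and 18.0, 13.1, 21.1 and 15.2 CPM in WT (log2 fold change −0.56, edgeR adjusted p = 0.0293), and KO replicate 2 lay above WT replicate 2. The adjusted p rose to 0.0575 to 0.0844 without KO replicate 1, 3 or 4 or WT replicate 1 or 3. The receptor gene Ghr (log2 fold change −0.13, adjusted p = 0.158) was not called. Socs2, on the same list, moved opposite to Cish and was not called either (log2 fold change 0.44, edgeR adjusted p = 0.0743). Over the list, 6 log2 fold changes lay above 0 and 5 below. Whether growth hormone signalling itself differed was not tested.

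Of 32 PI3K, AKT and mTOR genes, 2 were called higher and none lower (median 0.02), or 6.25% called against 11% of all genes. Eif4ebp1, a translation repressor that mTOR inactivates, rose from 17.6 ± 1.12 to 31.9 ± 5.32 CPM (log2 fold change 0.86, edgeR adjusted p = 0.00101), and Sesn3, a stress-induced inhibitor of mTORC1, from 8.52 ± 0.597 to 11.9 ± 0.967 CPM (0.49, 0.00935). Among 23 of 24 growth genes that were tested, 5 were called higher and 1 lower (median 0.06), or 26.1% called against the same 11%. The list holds few genes, and nothing particular to it is read from this share. Tgfb1, a profibrotic cytokine, rose from 11.2 ± 2.35 to 22.3 ± 2.79 CPM (2.01-fold, 0.00177), Myc from 13.8 ± 3.78 to 27.8 ± 6.00 CPM (2.02-fold, 0.0105), and the cell cycle kinase gene Cdk4 from 76.1 ± 5.15 to 94.9 ± 3.26 CPM (1.25-fold, 0.00727).
Other growth genes were called with less margin. Wwtr1, the Hippo effector TAZ, rose by 0.24 (adjusted p = 0.0317), which reached 0.0557 to 0.0854 without KO replicate 2 or 4 or WT replicate 1, 2 or 3. Cdkn1a, a cell cycle inhibitor, had 1.20 (0.0374), which reached 0.0659 to 0.106 without KO replicate 1 or 2 or WT replicate 2, 3 or 4. Ccnd3, a cyclin, had −0.32 (0.0319), which reached 0.0576 to 0.0930 without KO replicate 2 or 3 or WT replicate 1, 3 or 4, and it shares 358 exon bases with Bysl. These last 2 were named after their values were seen. Beside these lists, 5 of 6 injured tubule markers were called higher in KO (median log2 fold change 1.88). Over all genes, 6.32% were called higher and 4.68% lower. Markers of several nephron segments were called lower: 5 of 5 of principal cells (median −0.57), 3 of 5 of intercalated cells (−0.49), 2 of 3 of the distal convoluted tubule (−0.48), 3 of 8 of the proximal tubule (−0.19) and 1 of 4 of the thick limb (−0.05). Intercalated cell markers summed to 130 to 156 CPM in KO and 184 to 224 CPM in WT. The part of injury or cell make-up in the pathway genes, Insrr and Klk1 included, was not tested.

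**Figure D4:**
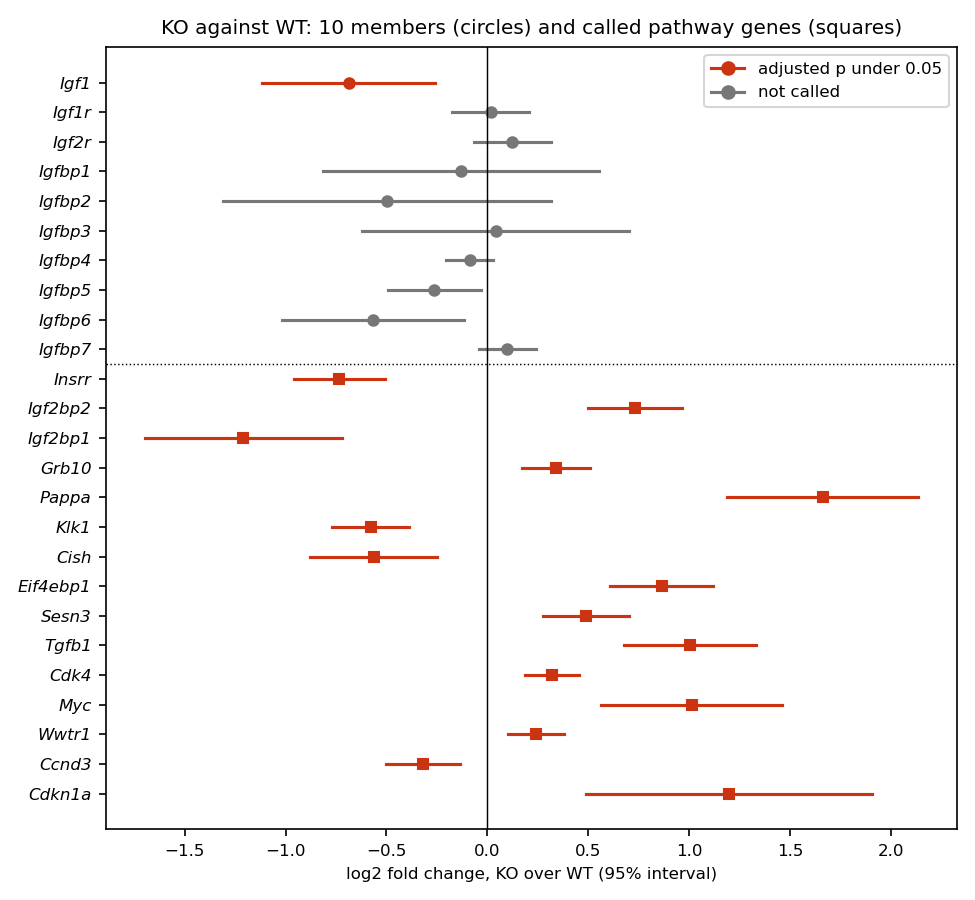
Log2 fold changes of KO over WT with 95% intervals for the 10 members (circles) and the called genes of the pathway lists (squares), red where the edgeR adjusted p is under 0.05. Igf1 is the red circle at −0.69, and Pappa the square furthest to the right at 1.66.

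**Figure D5:**
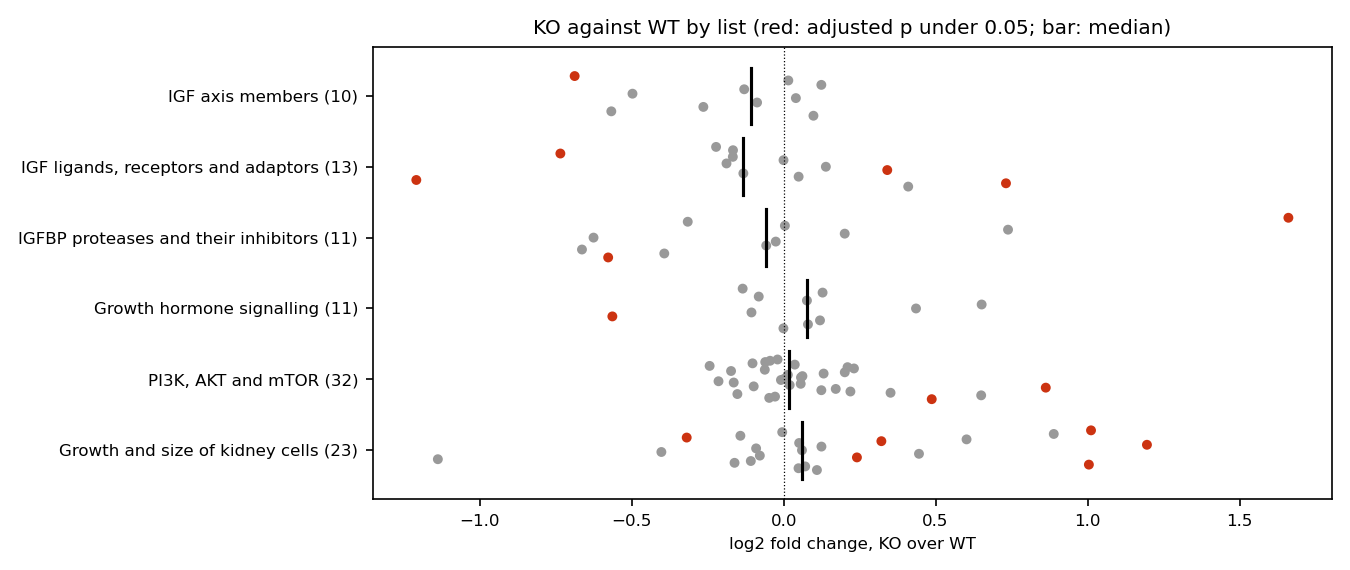
Log2 fold change of each tested gene (points, spread vertically for legibility) in the members and the 5 pathway lists, with the median as a bar and the number tested in brackets. Medians lie between −0.13 and 0.08, with single genes away from them.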

How the data were processed

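Polyadenylated kidney RNA from 10 mice was read from a single end over 100 nucleotides with a target of about 56 M (mega) reads, per the labels' protocols. STAR, featureCounts and edgeR are named in the submitters' processing notes, and featureCounts 1.5.2 counted primary alignments over UCSC mm10 exons without strand, giving a read to every gene it overlapped, per the file headers. The authors deposited raw counts per gene and log2 values, and the deposited log2 table of 13645 genes equalled voom log2 CPM to within 4.97e-14. The single tables equalled the joined matrix in 10 of 10 columns.

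The KO and WT counts were filtered (filterByExpr), scaled (TMM) and fitted on genotype with edgeR 4.0.16 under R 4.3.3, where the F test of the quasi-likelihood model gave p-values that were adjusted by Benjamini-Hochberg over 15547 genes. SE is the log2 fold change divided by the root of F, and intervals are 95%. Printed CPM and RPKM (by the featureCounts length) use TMM over 10 libraries, and strain differences use log2 CPM with a prior count of 2. The biological coefficient of variation was 12.3%, and replicates differed by more than sampling noise in every pair (chi-square over its degrees of freedom 10.9 or more). Alternatives used limma 3.58.1 and DESeq2 1.42.0, other filters and scalings, thinned counts, and each library left out. The script was tested on simulated data.

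All 10 members are named, with up to 4 called genes of each pathway list by smallest p (or the 1 with the smallest p), defining markers of cell types, and the 3 genes most like each called member. Outside this rule, Ghr, Igf2, Socs2 and Stc2, which were not called, are named too, as are Cdkn1a, Ccnd3 and some further cell type markers. Members and lists were chosen with earlier results of these data known. Where nothing in the labels says otherwise, p-values set a difference against the spread between these libraries, each from 1 mouse. Libraries whose titles share a first number were treated as separate.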

Additional observations from a re-analysis of the deposited data

Results flagged for a closer look

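In 2 genes every KO library lay on one side of every WT library among samples with a leading E in the title, and on the other side among those without. For Igf2r the log2 fold change was higher by 0.39 with the E than without, and for Igfbp2 it differed by −1.76. Each form holds 2 KO and 2 WT libraries, and no first number in their titles is shared by both genotypes. How many of all genes show this pattern was not counted, so nothing particular to the members is read from it. For Igf2r without the E the margin was narrow, 218 CPM in KO replicate 2 against 220 CPM in WT replicate 2. The counting errors of these values were 1.05% and 1.20%. The difference itself was tested in edgeR over all genes, and it did not pass (adjusted p = 0.691 for Igf2r and 0.648 for Igfbp2). No member had a library that stood apart within the 4 KO or the 4 WT libraries by Dixon's criterion.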

How the results depend on the processing

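The number of members called, 1 in edgeR, was 2 with DESeq2 (Igf1 and Igfbp6), 0 with counts thinned to the total of the shallowest library (Igf1 adjusted p = 0.0522), 0 with limma trend on the deposited log2 values (0.0513), and 0 to 1 with 1 library left out. Over all genes, leaving out 1 library gave 1005 to 1638 calls, 610 to 916 higher and 381 to 722 lower, with the fewest in all without KO replicate 1, KO replicate 2 or WT replicate 3. The other settings gave 1578 to 2344 calls. The direction of 5 members that were not called turned in some settings. Igf1r was −0.0669 in the form without a leading E alone and −0.0679 to 0.0729 with 1 library left out. Igf2r was −0.0669 and Igfbp2 0.56 in that form alone. Igfbp1 was 0.0727 with limma voom, 0.0160 with limma trend, 0.681 in the form with the E alone and −0.399 to 0.0798 with 1 library left out. Igfbp3 was −0.000763 with limma trend, −0.16 in the form without the E alone and −0.11 to 0.28 with 1 library left out. The cause of these changes was not tested. Of the alternative fits of the members, 162 kept their direction and side of the threshold, 17 turned, 9 lost the call and 2 gained one. All 9 lost calls were of Igf1, and the 2 fits within title forms are counted here. Strain values outside the C57BL/6N range numbered 10, and 10 with a prior count of 0.5 and 9 with library totals alone. Counting error was 6.26 to 10.8% for Igf1, 6.98 to 14.4% for Igfbp2 and 5.11 to 7.86% for Igfbp6 over the 8 libraries, under the variation between WT libraries (CV 24.7, 53.1 and 23.1%).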
